A study of Homo sapiens with 6 samples.

Results

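The interferon-linked transcription factors STAT2, STAT3, IRF1, IRF2, IRF3, IRF7 and IRF9 and the kinase JAK1 were followed in RNA sequencing of BxPC-3, a human cell line established from a pancreatic cancer. Members were taken by gene symbol, and all 8 were found among the 26255 symbols of the data. There were 3 groups of 2 libraries each. Parent cells received no treatment, NC-1 cells received a negative control RNA, and miR-4711-5p cells received the microRNA miR-4711-5p, with RNA compared 36 h after transfection. All groups share the same cell line, and the parent cells were not transfected, so transfection and the control RNA cannot be told apart in NC-1 against parent. The labels do not say whether the libraries of a group came from separate cultures, so the spread between these libraries may be technical. The p-values set group differences against this spread, estimated over the 3 groups and moderated across genes.

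Janus kinases such as JAK1 sit on the inner side of cytokine receptors and phosphorylate STAT proteins once a ligand is bound. After type I or type III interferon, STAT2 and IRF9 act within ISGF3, a complex that binds interferon-stimulated response elements (ISREs) in the promoters of antiviral genes. STAT3 dimers bind a different element of the type called gamma-activated site (GAS), and STAT3 carries signals of the IL-6 family. IRF3 and IRF7 are activated downstream of nucleic acid sensors and switch on interferon genes, IRF1 activates antigen presentation and interferon-response genes, and IRF2 binds the same elements and is known mainly as an antagonist of IRF1. STAT2, IRF9, IRF1 and IRF7 are themselves interferon-stimulated genes in many cell types. mRNA levels do not report phosphorylation or nuclear entry, through which these proteins act.

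The sequence of miR-4711-5p is shown because its seed (bases 2 to 8, in capitals) sets which sites in the members could pair with it. The mature RNA is 23 bases long and is encoded at chr1:60198941-60198963 on the minus strand (GRCh37, the same assembly as the hg19 the authors mapped to; sequence from RefSeq).
miR-4711-5p: uGCAUCAGgccagaagacaugag

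Matches to the seed (CTGATGC, or TGATGCA with the last base an A opposite miRNA base 1) were searched in the annotated 3′ UTRs of all 8 members. A match was found in 2 of them, STAT3 and IRF9, and no match was found in the annotated 3′ UTRs of STAT2, IRF1, IRF2, IRF3, IRF7 or JAK1. Both matches were of the form TGATGCA (capitals below), which leaves base 8 of the seed unpaired. The STAT3 match lies at chr17:40466359-40466365 on the minus strand, in the canonical 3′ UTR and in 20 of 28 coding transcripts. The IRF9 match lies at chr14:24637139-24637145 on the plus strand and occurs in only 1 of 22 coding transcripts, not the canonical one. Among 10593 tested genes with an annotated 3′ UTR, 20.6% held a match in some transcript, so 2 of 8 members is near that share. A match is a description of the letters, not evidence of binding.
STAT3 3′ UTR: caggttggacaTGATGCAcactatggggcc
IRF9 3′ UTR: tgccctcaatgTGATGCAatgtgatgaaat

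Promoters of the members are shown because STAT and IRF genes can lie under STAT and IRF control themselves. Windows of 250 bases before to 50 bases after the start were available for 5 members (STAT2, STAT3, IRF1, IRF9 and JAK1, the last with 3 starts) from RefSeq (GRCh38.p14), and were placed on GRCh37 by exact match. The ISRE core, searched as GAAANNGAAA on both strands, was found in none of these 7 windows, against 3.57% of 35116 promoters of the same length. The GAS core TTCNNNGAA, which reads the same on both strands, was found in 2 windows, those of IRF1 and IRF9, against 7.66% of all promoters. In the lists of related genes described below, this share ran from 0% to 31.2% of windows. In IRF1 the core TTCCCCGAA starts at base -124 from the start of transcription, and in IRF9 the core TTCTGGGAA starts at base -63 (capitals below). The window of STAT2 held neither core and is shown beside them because STAT2 and IRF9 had the largest differences among the members tested. No match says only that these letters are not in this window. The windows lie at chr5:131826416-131826715 (IRF1, minus strand), chr14:24630224-24630523 (IRF9, plus strand) and chr12:56753842-56754141 (STAT2, minus strand).
IRF1 promoter: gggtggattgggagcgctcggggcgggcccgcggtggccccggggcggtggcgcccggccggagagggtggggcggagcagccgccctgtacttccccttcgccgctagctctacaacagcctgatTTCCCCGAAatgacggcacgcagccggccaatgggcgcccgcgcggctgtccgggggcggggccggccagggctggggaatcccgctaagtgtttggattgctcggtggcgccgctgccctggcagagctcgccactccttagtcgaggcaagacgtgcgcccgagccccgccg
IRF9 promoter: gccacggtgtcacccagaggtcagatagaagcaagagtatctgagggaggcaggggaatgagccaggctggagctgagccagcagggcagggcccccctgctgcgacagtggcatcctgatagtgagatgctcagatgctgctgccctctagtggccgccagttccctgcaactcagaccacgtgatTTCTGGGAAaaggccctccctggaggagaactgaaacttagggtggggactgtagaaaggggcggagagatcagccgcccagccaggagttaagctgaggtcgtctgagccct
STAT2 promoter: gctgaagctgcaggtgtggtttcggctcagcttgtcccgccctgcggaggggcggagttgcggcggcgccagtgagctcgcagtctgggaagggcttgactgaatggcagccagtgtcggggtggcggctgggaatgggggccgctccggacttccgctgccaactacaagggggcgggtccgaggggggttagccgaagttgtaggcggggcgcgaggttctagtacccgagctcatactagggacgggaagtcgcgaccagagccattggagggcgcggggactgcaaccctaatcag

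The values are FPKM, fragments scaled to exon length and library size, so that levels can be compared between genes per length. FPKM keep no read number, and the depth in reads is unknown. The step between low values gave depths of 0.75 to 1.21 relative to the first parent library, and total FPKM ran from 493145 to 550772. The 2 libraries of a group differed by a median of 0.064 to 0.080 on the log2 scale. The 7 epithelial markers KRT7, KRT8, KRT18, KRT19, EPCAM, MUC1 and KRT17 were each at 14.6 FPKM or more in every library. They summed to 7239 to 8063 FPKM in the controls and to 6240 and 6142 FPKM with miR-4711-5p. KRT17, KRT19 and MUC1 were lower by limma (adjusted p below 0.05) with miR-4711-5p than in both control groups, and KRT18 was higher. Against NC-1 only, KRT7 was lower at this limit, and KRT8 and EPCAM were higher. The part of these differences in the results was not tested. The 9 blood cell markers summed to 1.86 FPKM at most, 2 of them (TYROBP and SPI1) at 0 throughout, and the 6 fibroblast markers to 2.47 FPKM at most. Of the 4 acinar markers, CELA3A and AMY2A were at 0 throughout and CPA1 at 0.0461 FPKM at most, while the trypsinogen gene PRSS1 was at 0.684 and 1.57 FPKM in parent, 2.73 and 2.62 with NC-1 and 3.18 and 5.10 with miR-4711-5p (limma adjusted p = 0.00427 against parent), and its part in the results was not tested. SMAD4 and CDKN2A, known to be deleted in BxPC-3, were listed at 0 in all 6 libraries. In bulk RNA, fewer cells of a type and less RNA per cell cannot be told apart.

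Of the 8 members, 7 averaged 1 FPKM or more across libraries and entered the limma fit over 12040 genes on log2(FPKM + 1), while IRF7 stayed under this limit in every library. A gene was called when its adjusted p was below 0.05 (Benjamini-Hochberg over all genes tested, two-sided). Between miR-4711-5p and parent, 3 of the 7 (STAT2, IRF9 and JAK1) were called higher and 0 lower. Over all genes 43.4% were called in this comparison, 18.7% higher and 24.7% lower. The total share called among the members was thus near the background, but all of their calls were higher. With 7 members such shares are coarse. Between miR-4711-5p and NC-1 the same 3 were called higher and 1 (IRF2) lower, where 39.6% of all genes were called, 18.4% higher and 21.2% lower. Between NC-1 and parent 4 were called higher (STAT2, IRF9, JAK1 and IRF2) and 0 lower, where 27.2% of all genes were called, 12.1% higher and 15.1% lower. Without parent replicate 1 or without NC-1 replicate 1 this last count was 2. Both miR-4711-5p libraries lay above all 4 control libraries for STAT2, IRF9, JAK1 and IRF1, as they did for 23.8% of all genes tested, and below all 4 for IRF2, as for 26.3% of all genes tested. IRF7, which was not tested, also lay lower with miR-4711-5p than in all 4 controls. With each library rescaled to the same total FPKM, 6 members were called higher against parent in both the miR-4711-5p and the NC-1 comparison. This rescaling moved the median of all genes from -0.01 to 0.11 on the log2 scale between miR-4711-5p and parent.

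**Figure D1:**
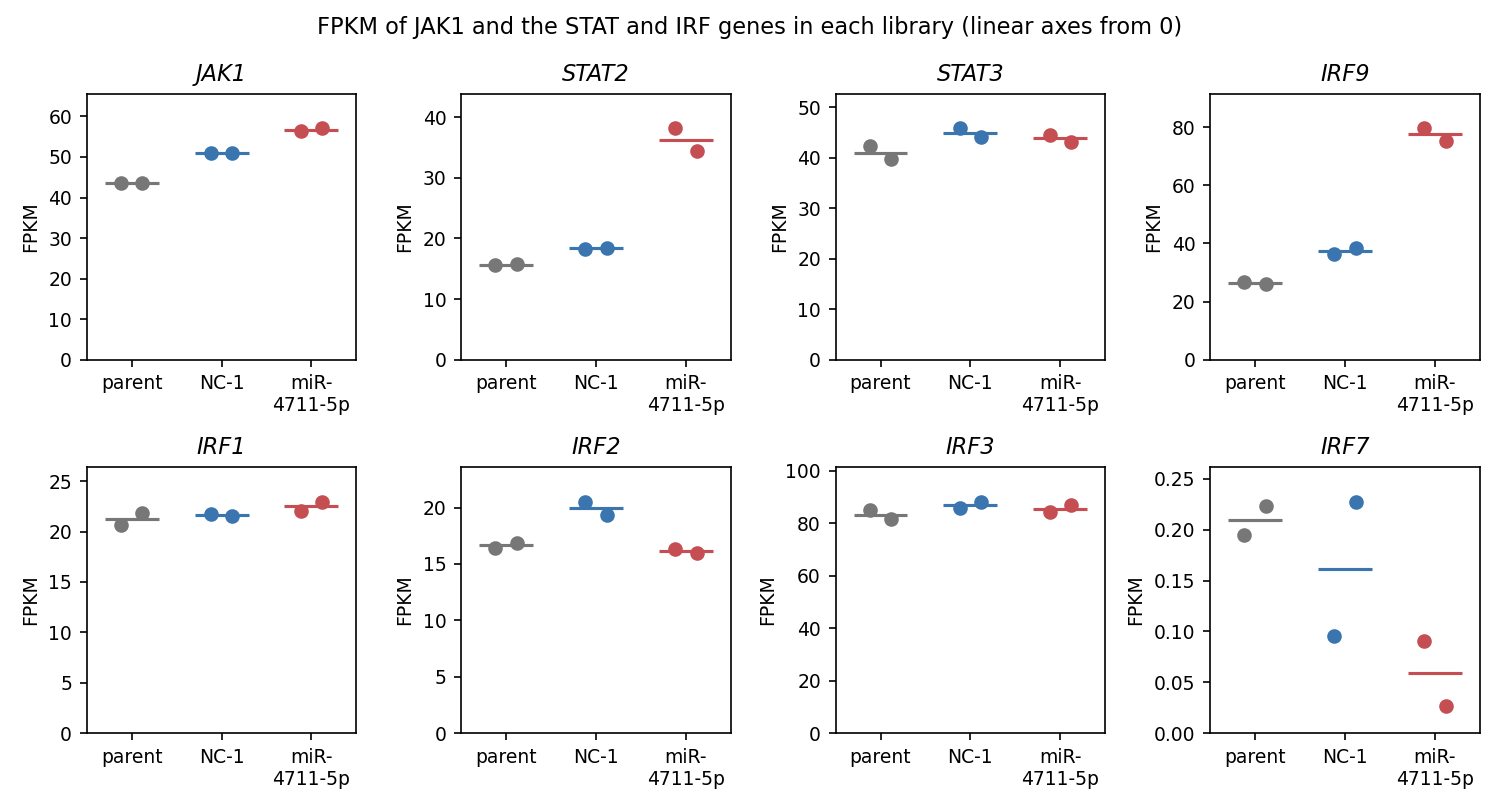
FPKM (y axis, linear from 0) of each member in the parent (grey), NC-1 (blue) and miR-4711-5p (red) libraries; points are single libraries and lines are group means (n = 2). STAT2 and IRF9 stand apart with miR-4711-5p at 34.4 to 38.2 and 75.4 to 79.6 FPKM, JAK1 steps up by group, IRF2 is highest in NC-1, and IRF7 stays under 0.23 FPKM.

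STAT2 and IRF9, partners in ISGF3, had about 2-fold more FPKM with miR-4711-5p than NC-1 cells and showed the largest differences among the 7 members tested. STAT2, the subunit that carries the transactivation domain of ISGF3, was at 15.5 and 15.7 FPKM in parent, at 18.3 and 18.4 with NC-1 and at 38.2 and 34.4 with miR-4711-5p. The groups did not overlap, and the step from NC-1 to miR-4711-5p was far larger than that from parent to NC-1. The mean of the miR-4711-5p libraries was 1.98 times that of NC-1 (log2 difference 0.94 ± 0.06 SE, limma adjusted p = 4.26e-05) and 2.32 times that of parent (1.16 ± 0.06, adjusted p = 1.61e-05). NC-1 was 1.17 times parent (log2 difference 0.22 ± 0.06 SE, limma adjusted p = 0.0372). This last call was lost when any of the parent or NC-1 libraries was left out (adjusted p = 0.0980 to 0.131).

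IRF9, the subunit through which ISGF3 recognises the ISRE, was at 26.7 and 26.0 FPKM in parent, at 36.5 and 38.5 with NC-1 and at 79.6 and 75.4 with miR-4711-5p. The order of the groups was that of STAT2, again without overlap. miR-4711-5p was 2.07 times NC-1 (log2 difference 1.03 ± 0.05 SE, limma adjusted p = 1.64e-05) and 2.94 times parent (1.52 ± 0.05, adjusted p = 3.95e-06). NC-1 was 1.42 times parent (0.49 ± 0.05, limma adjusted p = 0.00161), the largest difference of a member between the 2 control groups. IRF9 is the member whose 3′ UTR match to the miR-4711-5p seed occurs in 1 transcript only, and its FPKM was higher with miR-4711-5p. Whether this match acts on IRF9 was not tested. An annotated coding locus on the same strand (ENSG00000259529) shares 23.9% of the exonic bases of IRF9, and how reads there were assigned is not given in the sources used here.

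The ratio of IRF9 to STAT2 FPKM was 1.72 and 1.65 in parent, 1.99 and 2.10 with NC-1, and 2.08 and 2.19 with miR-4711-5p. The ratio was therefore lowest in parent, and the NC-1 and miR-4711-5p libraries overlapped. This ratio is a description and was not tested.

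JAK1, the kinase shared by the interferon, IL-6 family and common gamma chain receptors, differed between all 3 groups by small steps. It was at 43.7 and 43.6 FPKM in parent, at 51.1 and 50.9 with NC-1 and at 56.4 and 57.1 with miR-4711-5p. The 2 libraries of a group lay within 1 FPKM of each other, and the groups did not overlap. miR-4711-5p was 1.30 times parent (log2 difference 0.37 ± 0.04 SE, limma adjusted p = 0.000479), and NC-1 was 1.17 times parent (0.22 ± 0.04, adjusted p = 0.00998). miR-4711-5p was 1.11 times NC-1 (0.15 ± 0.04, limma adjusted p = 0.0241). The call against NC-1 was lost when any of the NC-1 or miR-4711-5p libraries was left out (adjusted p = 0.0689 to 0.120).

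STAT3, which carries signals of the IL-6 family and holds a seed match in its canonical 3′ UTR, was not called in any comparison. Its libraries were at 42.3 and 39.6 FPKM in parent, at 45.8 and 44.05 with NC-1 and at 44.5 and 43.1 with miR-4711-5p. The miR-4711-5p libraries overlapped those of NC-1 and lay above those of parent. The log2 difference of miR-4711-5p from NC-1 was -0.04 (95% interval -0.16 to 0.09, limma adjusted p = 0.612). The difference from parent was 0.09 (-0.03 to 0.22, limma adjusted p = 0.179), and that of NC-1 from parent was 0.13 (0.01 to 0.25, adjusted p = 0.102). After rescaling to equal total FPKM the difference from NC-1 turned to 0.02, and STAT3 was called higher than parent with miR-4711-5p (0.23, limma adjusted p = 0.00907) and with NC-1 (0.21, adjusted p = 0.0218). With STAT2 higher, the ratio of STAT3 to STAT2 FPKM was 2.40 to 2.72 in the 4 control libraries and 1.17 and 1.25 with miR-4711-5p.

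**Figure D2:**
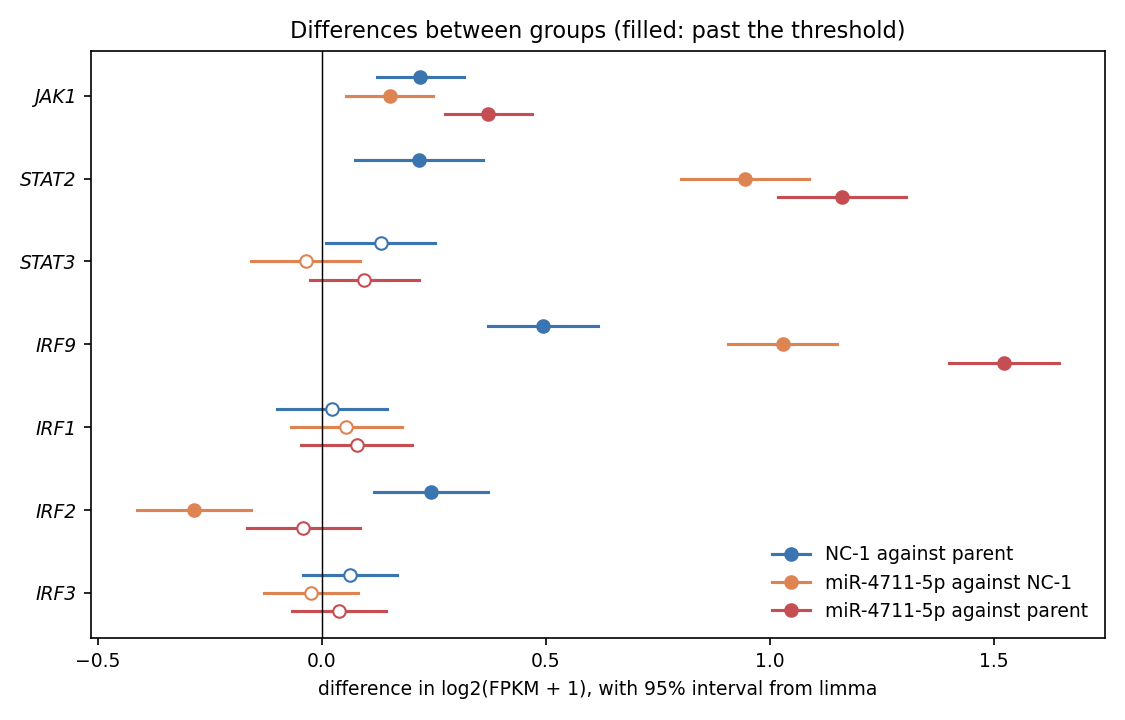
Difference in log2(FPKM + 1) with its 95% interval from limma (x axis) for the 7 members tested; blue is NC-1 against parent, orange miR-4711-5p against NC-1 and red miR-4711-5p against parent, and filled points are past the adjusted threshold of 0.05. STAT2 and IRF9 lie near 1 against NC-1, the IRF2 points lie on both sides of 0, and the intervals of STAT3, IRF1 and IRF3 run from -0.16 to 0.25; the near-zero points of STAT3, IRF3 and IRF2 change sign in some comparisons after rescaling to equal totals.

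IRF1 and IRF2, which bind the same elements and are known for opposite actions on them, had different patterns. IRF1, the activator, was at 20.7 and 21.9 FPKM in parent, at 21.7 and 21.5 with NC-1 and at 22.04 and 22.96 with miR-4711-5p. Both miR-4711-5p libraries were above the 4 controls, by less than the distance between the parent libraries. The log2 difference from NC-1 was 0.05 (95% interval -0.07 to 0.18, limma adjusted p = 0.441) and that from parent was 0.08 (-0.05 to 0.20, adjusted p = 0.270). NC-1 differed from parent by 0.02 (-0.10 to 0.15, limma adjusted p = 0.775). Rescaling to equal totals gave a difference of 0.21 from parent with miR-4711-5p (limma adjusted p = 0.0164). The antisense gene IRF1-AS1 overlaps 22.9% of the exonic bases of IRF1 on the other strand.

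IRF2 was at 16.4 and 16.9 FPKM in parent, at 20.5 and 19.3 with NC-1 and at 16.4 and 15.97 with miR-4711-5p. The NC-1 libraries were the high ones, and the miR-4711-5p libraries lay just under those of parent. IRF2 was lower with miR-4711-5p than with NC-1, at 0.811 times its level (log2 difference -0.28 ± 0.05 SE, limma adjusted p = 0.00553). NC-1 was 1.20 times parent (0.24 ± 0.05, limma adjusted p = 0.0174), a call that was lost without parent replicate 1 (adjusted p = 0.0814) and without NC-1 replicate 1 (adjusted p = 0.0871). Against parent, miR-4711-5p differed by -0.04 (95% interval -0.17 to 0.09, limma adjusted p = 0.565), which turned to 0.09 after rescaling to equal totals. The ratio of IRF1 to IRF2 FPKM was 1.26 and 1.30 in parent, 1.06 and 1.11 with NC-1, and 1.35 and 1.44 with miR-4711-5p, so that the groups did not overlap in this ratio. The ratio was lowest with NC-1 and highest with miR-4711-5p.

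IRF3 and IRF7, which relay signals of nucleic acid sensors, were at opposite ends of the range of levels. IRF3 was the highest member at 85.1 and 81.6 FPKM in parent, 86.0 and 88.3 with NC-1 and 84.4 and 86.9 with miR-4711-5p. The miR-4711-5p libraries overlapped both control groups. The log2 difference from NC-1 was -0.02 (95% interval -0.13 to 0.08, limma adjusted p = 0.693), that from parent was 0.04 (-0.07 to 0.14, adjusted p = 0.510), and NC-1 differed from parent by 0.06 (-0.04 to 0.17, adjusted p = 0.323). After rescaling to equal totals the first of these turned to 0.03, and IRF3 was called higher than parent with miR-4711-5p (0.18, limma adjusted p = 0.0116) and NC-1 (0.15, adjusted p = 0.0372). BCL2L12, at 29.2 to 37.8 FPKM, overlaps 19.3% of the exonic bases of IRF3 on the other strand. The library kit keeps strand, but whether the counting used it is not given in the sources used here. Reads of IRF3 and BCL2L12, or of IRF1 and its antisense gene, may therefore not be told apart in the overlaps.

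IRF7 was at 0.195 and 0.223 FPKM in parent, at 0.0951 and 0.228 with NC-1 and at 0.0907 and 0.0269 with miR-4711-5p. These levels lie under 1 FPKM in all libraries, and of the NC-1 libraries one lay at the level of parent and the other near that of miR-4711-5p. In a fit without the filter on low values IRF7 was not called in any comparison (log2 difference -0.13 between miR-4711-5p and NC-1, limma adjusted p = 0.231; -0.19 between miR-4711-5p and parent, adjusted p = 0.0977). IRF7 thus stayed low in the libraries in which IRF9 and STAT2 were higher.

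In FPKM, which are per length, the order of the members in parent was IRF3, JAK1, STAT3, IRF9, IRF1, IRF2, STAT2 and IRF7, with means of 83.3, 43.6, 41.0, 26.3, 21.3, 16.7, 15.6 and 0.209. With NC-1 the order was the same. With miR-4711-5p it was IRF3, IRF9, JAK1, STAT3, STAT2, IRF1, IRF2 and IRF7, with means of 85.6, 77.5, 56.7, 43.8, 36.3, 22.5, 16.2 and 0.0588. IRF9 thus stood above JAK1 and STAT3, and STAT2 above IRF1 and IRF2, with miR-4711-5p only among the 3 groups. The libraries of neighbours in the order did not overlap within a group, and the closest neighbours in FPKM were IRF2 and STAT2 in parent (lowest IRF2 value 16.4, highest STAT2 value 15.7). Levels were not tested between genes.

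Of the other JAK, STAT and IRF genes, 10 were followed, of which JAK3, STAT4, IRF4 and IRF8 stayed under a mean of 1 FPKM and 6 were tested. None of the 6 was called by limma between miR-4711-5p and NC-1, although STAT5A and STAT5B, which carry signals of growth hormone and prolactin, were below an unadjusted p of 0.05 and 2 genes were called lower without the trend. STAT6, which carries IL-4 and IL-13 signals, was the highest of the 6. It was at 89.6 and 82.6 FPKM in parent, at 72.9 and 74.04 with NC-1 and at 68.08 in both miR-4711-5p libraries. It was called lower than parent with miR-4711-5p (log2 difference -0.33, limma adjusted p = 0.00189), the only one of the 6 called there. Between NC-1 and parent, STAT5A and STAT5B were called higher and STAT6 lower. The counts of 0, 1 and 3 of 6 (against NC-1, against parent, and between NC-1 and parent) stand beside 39.6%, 43.4% and 27.2% of all genes. The count of 3 became 0 without parent replicate 1 or NC-1 replicate 1, and 1 without parent replicate 2 or NC-1 replicate 2. After rescaling to equal totals 3 were higher and 0 lower there. JAK2, at 5.12 to 6.43 FPKM, and TYK2, the kinase of the type I interferon receptor, at 13.3 to 15.6 FPKM, were not called in any comparison. The median log2 difference of the 6 from NC-1 was -0.14, against 0.00 over all genes.

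**Figure D3:**
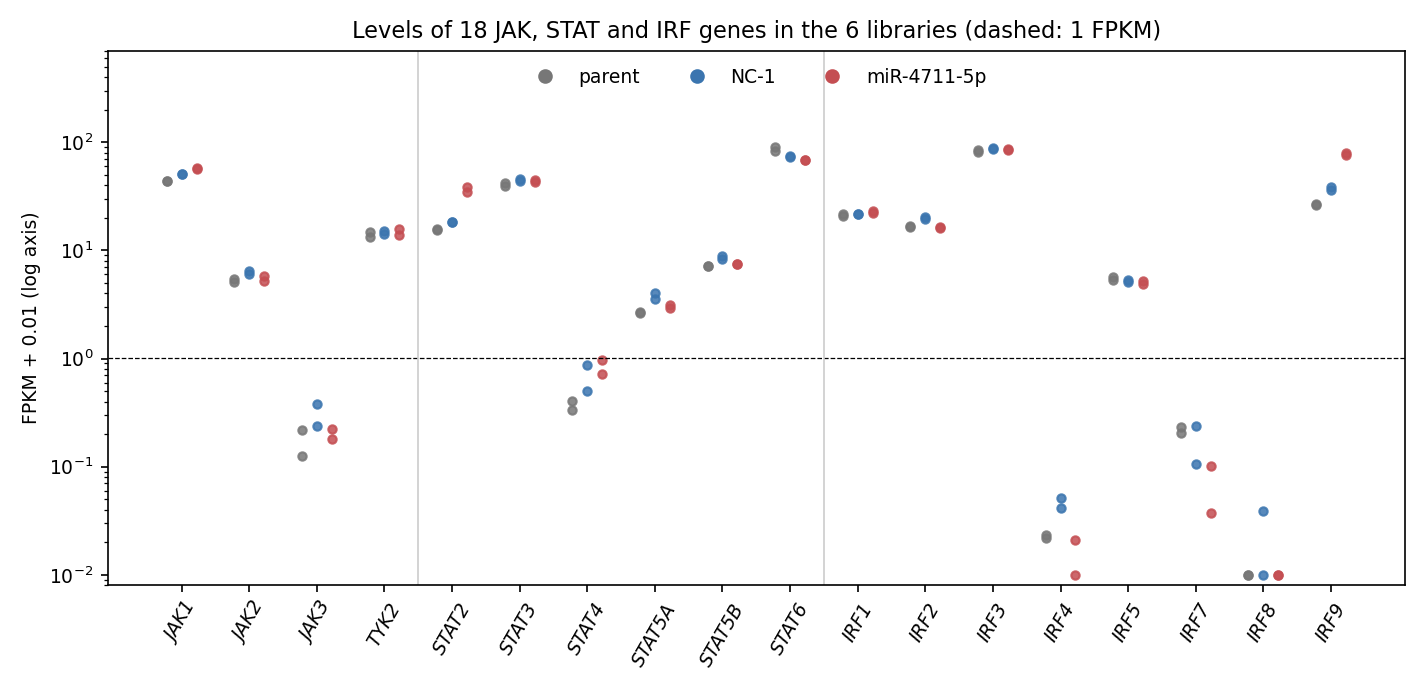
FPKM plus 0.01 (log axis) of 18 JAK, STAT and IRF genes in the 6 libraries, coloured by group (parent grey, NC-1 blue, miR-4711-5p red), with a dashed line at 1 FPKM. STAT2 and IRF9 are the genes whose red points stand clearly above the others, and JAK3, STAT4, IRF4, IRF7 and IRF8 lie under the dashed line.

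Chains of receptors that use JAK1 were lower with miR-4711-5p than with NC-1 more often than higher. Of 13 listed, 12 were tested, 8 were called lower and 2 higher against NC-1, where 21.2% of all genes were called lower and 18.4% higher, with a median log2 difference of -0.26. IFNAR1, the chain of the type I interferon receptor that binds TYK2, was at 11.9 and 11.3 FPKM with NC-1 and at 8.27 and 8.18 with miR-4711-5p, a log2 difference of -0.45. IL6ST (gp130), the shared chain of the IL-6 family, differed by -0.42, and IL22RA1, a chain of the IL-22 receptor, by -0.40. LIFR, the receptor of leukemia inhibitory factor, was higher by 0.65, and OSMR, the oncostatin M receptor, was the other one called higher. Between NC-1 and parent 7 of the 12 were called higher and 0 lower (median 0.24), beside 12.1% and 15.1% of all genes. Against parent, 4 were called higher with miR-4711-5p and 0 lower (median 0.02), beside 18.7% and 24.7% of all genes. IFNAR1 and IL6ST were not called against parent, with means of 8.22 against 9.10 and 21.6 against 21.5 FPKM. The 8 lower calls against NC-1 became 5 without NC-1 replicate 1, NC-1 replicate 2 or miR-4711-5p replicate 1, 4 without miR-4711-5p replicate 2, and 0 (with 1 higher) under an additional limit of 1.5-fold.

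Negative regulators of JAK, STAT and IRF signalling were represented by 20 genes, of which miR-4711-5p cells had 8 called higher and 2 lower than NC-1 cells (median log2 difference 0.15). The 10 called of 20 stand beside 39.6% of all genes in this comparison. USP18, which removes ISG15 and blocks the type I interferon receptor, was at 4.19 and 4.52 FPKM with NC-1 and at 28.6 and 23.6 with miR-4711-5p, a log2 difference of 2.33. USP18 is also counted below among the ISRE targets, SOCS3 among the STAT3 targets, and the receptor chains IL6ST and OSMR among the STAT3 targets. SOCS2 and SOCS3, suppressors of cytokine signalling induced by STAT proteins, were each higher by 0.93, and SOCS5 by 0.55. SOCS2 was at 3.09 and 4.52 FPKM with NC-1 and at 5.35 and 5.75 in parent, so that NC-1 lay below parent. Against parent 5 were higher and 1 lower, a smaller share than the 43.4% of all genes called, and between NC-1 and parent 2 were higher and 4 lower, near the 27.2% of all genes. The count of 10 against NC-1 was 6 without miR-4711-5p replicate 1. The 6 called against parent became 3 without any of the parent or miR-4711-5p libraries and 13 (12 higher) after rescaling to equal totals. The 6 called between NC-1 and parent became 1 without parent replicate 1 or NC-1 replicate 1, 3 without parent replicate 2, 2 without either miR-4711-5p library, and 4 higher and 0 lower after rescaling.

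Kinases and adaptors upstream of IRF3 and IRF7 were called lower more often than higher against NC-1, where 21.2% of all genes were lower and 18.4% higher. Of 16 genes, those called in miR-4711-5p cells against NC-1 cells were 3 higher and 7 lower (median log2 difference -0.16), 5 were higher and 5 lower against parent (18.7% and 24.7% of all genes), and 4 were higher and 0 lower between NC-1 and parent (12.1% and 15.1%). TBK1, the kinase that phosphorylates IRF3, was at 22.4 and 22.3 FPKM with NC-1 and at 29.1 and 27.7 with miR-4711-5p (log2 difference 0.33). TRAF3, an adaptor that links the sensors to TBK1, was at 14.7 and 14.8 FPKM with NC-1 and at 9.20 and 9.35 with miR-4711-5p (-0.62). IRAK4, the kinase below MYD88, differed by -0.43. TANK, which binds TBK1 and TRAF3, differed by -0.59 from NC-1, but it was at 13.8 and 14.1 FPKM in parent, 20.2 and 18.2 with NC-1 and 13.03 and 11.7 with miR-4711-5p, and was not called against parent (limma adjusted p = 0.114). The 3 higher calls against NC-1 became 0 without miR-4711-5p replicate 1 (with 4 lower) and 1 without NC-1 replicate 1, NC-1 replicate 2 or miR-4711-5p replicate 2. The 5 higher calls against parent became 3 without parent replicate 1 or miR-4711-5p replicate 1. The 4 called between NC-1 and parent became 1 without parent replicate 1 or NC-1 replicate 1, and 2 without NC-1 replicate 2 or either miR-4711-5p library.

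Genes listed as known targets of ISGF3 through an ISRE were higher with miR-4711-5p throughout the list of 30. The list was chosen with earlier results of these data known, and the activity of ISGF3 was not tested. All 30 were tested and called higher than NC-1, with a median log2 difference of 1.38 against 0.00 over all genes. All 30 were also called higher than parent, with a median of 1.65 against -0.01. Over all genes, 18.4% were called higher than NC-1 and 18.7% higher than parent. The ratio to NC-1 ran from 1.51 for ISG20 to 7.83 for MX1. MX1, a GTPase that blocks viral replication, was at 6.91 and 7.09 FPKM in parent, at 8.56 and 9.17 with NC-1 and at 73.5 and 65.4 with miR-4711-5p. IFI6 was at 99.8 and 94.3 FPKM with NC-1 and at 753 and 640 with miR-4711-5p. IFIT1, which binds foreign RNA ends, was at 10.996 and 9.96 FPKM with NC-1 and at 81.4 and 72.7 with miR-4711-5p. Between NC-1 and parent 19 were called higher and 0 lower (median 0.27), beside 12.1% and 15.1% of all genes. This count became 8 without parent replicate 1, 12 without parent replicate 2 and 10 without either NC-1 library. Of the 33 promoter windows found for 24 of these genes, 22 (66.7%) held the ISRE core that none of the members' windows held. It was also found in 12 of 16 windows (75%) of the IRF1 and GAS target list described next.

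Genes listed as known to depend on IRF1 or a GAS were higher in part. Of 20 listed, 17 were tested, and in miR-4711-5p cells 10 were called higher and 0 lower than in NC-1 cells (median log2 difference 0.39), beside 18.4% and 21.2% of all genes. CXCL10, a chemokine for T cells, was at 22.3 and 21.9 FPKM with NC-1 and at 74.0 and 62.2 with miR-4711-5p (log2 difference 1.58). IDO1, which degrades tryptophan, differed by 1.21, CD274 (PD-L1) by 1.20 and the peptide transporter subunit TAP1 by 0.81. Against parent 13 were higher and 1, CASP1, lower, beside 18.7% and 24.7% of all genes. The CASP1 call was lost without the filter, without trend and without any of the parent or miR-4711-5p libraries, and after rescaling to equal totals. Between NC-1 and parent 10 were higher and 0 lower, beside 12.1% and 15.1% of all genes. Without parent replicate 2 the last count was 6. The 95% intervals of IRF1 itself ended at 0.18 against NC-1 and at 0.20 against parent. Rescaling to equal totals gave IRF1 a difference of 0.21 from parent with miR-4711-5p. A part of IRF1 in these genes was not tested.

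STAT3 targets were called in both directions. Of 20 listed, 18 were tested, of which 7 were higher and 6 lower in miR-4711-5p cells than in NC-1 cells (median log2 difference 0.10), beside 18.4% and 21.2% of all genes. SOCS3, the feedback inhibitor of IL-6 signalling, was at 3.60 and 4.95 FPKM with NC-1 and at 8.71 and 9.18 with miR-4711-5p, and LCN2 (lipocalin 2) was higher by 0.64. LRG1 was lower by 0.61 on the log2 scale, from 10.2 and 11.8 to 6.62 and 7.04 FPKM. FOS, an AP-1 subunit, differed by -0.60 from NC-1 but was not called against parent, where its means were 10.9 and 11.5 FPKM. Against parent 8 were higher and 4 lower, beside 18.7% and 24.7% of all genes, and between NC-1 and parent 4 were higher and 3 lower, beside 12.1% and 15.1%. The 7 higher calls against NC-1 became 4 without miR-4711-5p replicate 2, and the 8 against parent became 4 without parent replicate 2 and 5 without either miR-4711-5p library. The last count of 7 was 4 without parent replicate 1, and its split was 6 higher and 1 lower after rescaling to equal totals.

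**Figure D4:**
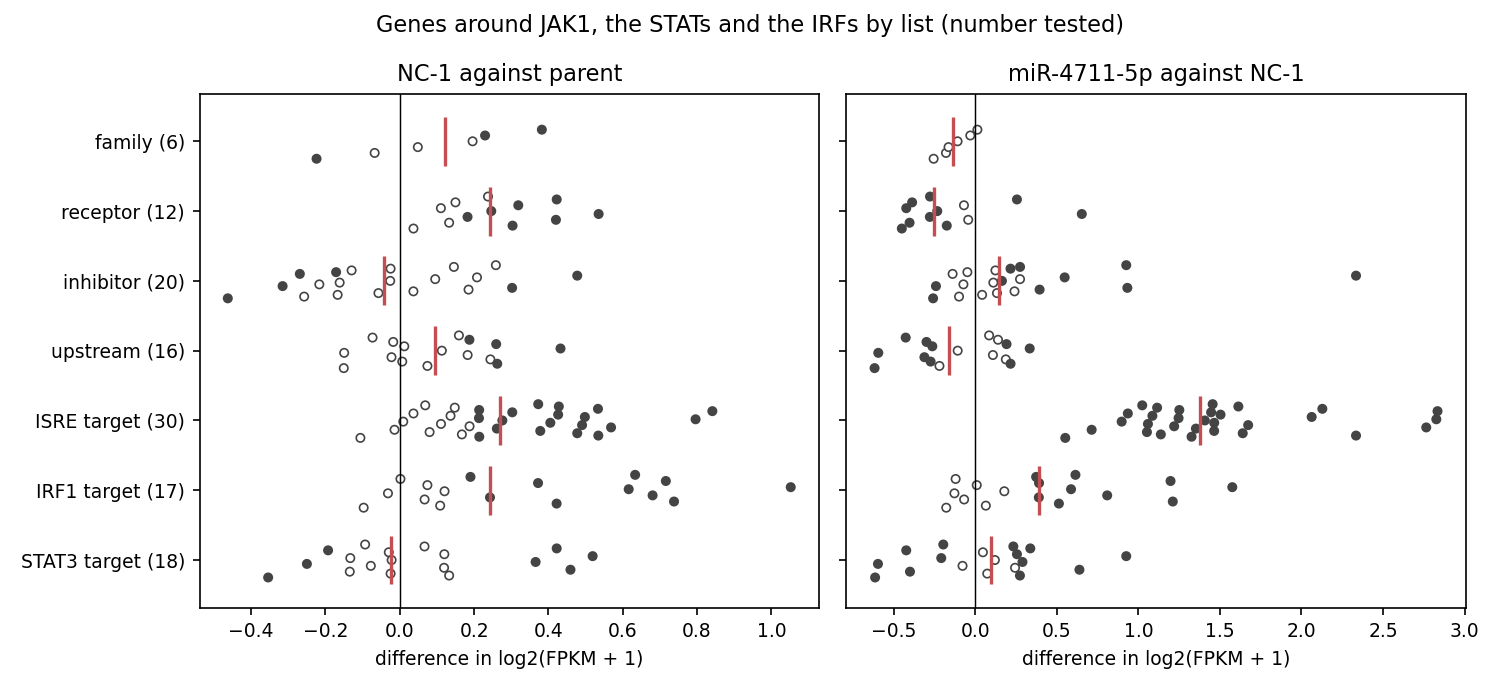
Difference in log2(FPKM + 1) (x axis) of each tested gene in the 7 lists, for NC-1 against parent (left) and miR-4711-5p against NC-1 (right); filled points are called, red bars are list medians, the vertical spread within a row has no meaning, and the x axes differ. On the right all 30 ISRE targets lie above 0 (median 1.38), while 8 of 12 receptor chains are called lower; on the left the receptor chains are called higher (7 of 12), and the called inhibitors change from 2 higher and 4 lower to 4 higher and 0 lower after rescaling to equal totals.

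The genes whose pattern over the 6 libraries was closest to IRF9, by the root mean square difference of log2(FPKM + 1) centred on each gene's mean, were RSAD2 (0.050), LAMP3 (0.067) and KRT80 (0.071). Those closest to STAT2 were PRSS23 (0.059), EIF2AK2 (0.060) and HERC6 (0.063). The ratio of mean FPKM of miR-4711-5p to NC-1 was 2.86 for RSAD2, 3.31 for LAMP3 and 2.12 for KRT80, against 2.07 for IRF9. The ratio of NC-1 to parent was 1.64 for RSAD2, 2.20 for LAMP3 and 1.30 for KRT80, against 1.42 for IRF9. Closeness on this scale was therefore not equality of ratios. RSAD2 averaged 1.02 FPKM in parent, a level at which the added 1 narrows log2 differences. For PRSS23, EIF2AK2 and HERC6 the ratio was 1.83, 2.15 and 2.10, against 1.98 for STAT2. These 6 genes were chosen for their likeness to the members over the same libraries, and their order is a description.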

How the data were processed

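RNA of BxPC-3 cells was sequenced in 6 libraries. Per the labels the kit was strand-specific, and their processing notes name TopHat2 2.1.1, Bowtie2 2.3.5.1, SAMtools 1.2 and Cufflinks 2.2.1 with Cuffdiff, whereas the study's methods name other releases of the first 3 and Cuffnorm. The authors mapped to hg19 and deposited FPKM per gene symbol, normalized for length and library size. The annotation, the strand option and the normalization option are not given in the sources used here.

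From the FPKM, log2(FPKM + 1) of 12040 genes averaging 1 FPKM or more was fitted with limma 3.58.1 (R 4.3.3; lmFit, contrasts.fit, eBayes with trend) in 1 fit of 3 groups, which had 3 residual and 4.15 prior degrees of freedom. Tests were two-sided with Benjamini-Hochberg adjustment over all genes at 0.05. This fit was tested on simulated data. Ratios are of mean FPKM. Sequences and matches were read with Python 3.11.15 from GRCh37, GENCODE and RefSeq. The members and lists were chosen with earlier results of these data known. Named were the 8 members and, per list, up to 4 called genes with the largest log2 difference from NC-1 (with none called, the 2 highest). Other genes (OSMR, STAT5A, STAT5B, JAK2, ISG20 and CASP1) were named after their values were seen. Some genes of the lists are not reported here.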

Additional observations from a re-analysis of the deposited data

How the results depend on the processing

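Alternatives were a pseudocount of another size, no filter or a stricter filter on low values, median-of-ratios factors, the replicate number as a block, only the 2 groups compared, eBayes without trend, an additional 1.5-fold limit and leaving out each library. Rescaling to equal total FPKM was added after seeing the data. STAT2 and IRF9 stayed called higher with miR-4711-5p against both control groups under all 15 alternatives. The 1.5-fold limit left 1112, 976 and 298 genes called (in the order of miR-4711-5p against parent and against NC-1, then NC-1 against parent, here and below), with 2 members against NC-1 (STAT2 and IRF9), 0 between NC-1 and parent, and 2 against parent (JAK1 lost). Against NC-1 it left 1 of 10 called receptor chains, 3 of 10 inhibitors and 2 of 10 upstream genes. It left 4 of 13 STAT3 targets and 6 of 10 IRF1 or GAS targets there, but 29 of 30 ISRE targets. Against parent it left 1 of 4 called receptor chains, 2 of 6 inhibitors and 1 of 10 upstream genes. It left 2 of 12 STAT3 targets and 9 of 14 IRF1 or GAS targets there, but all 30 ISRE targets. Without the filter 2165 genes were called between NC-1 and parent. Leaving out 1 library gave 3246 to 5185, 2887 to 4679 and 1457 to 2385 genes, and 3, 3 to 4 and 2 to 4 members. With 1 library in a group its spread is assumed to be that of the other groups.

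Rescaling to equal totals changed the split from 2255 higher and 2975 lower to 4014 and 1775, from 2214 and 2549 to 2925 and 2083, and from 1456 and 1823 to 2325 and 1000, and called 6 members against parent. It reversed IRF2 against parent (log2 difference 0.0904) and STAT3 (0.0171) and IRF3 (0.0293) against NC-1, none of them called. With 1 library left out, IRF1 between NC-1 and parent ran from -0.0158 without parent replicate 1, a reversal, to 0.0614 without parent replicate 2, and it was 0.104 after rescaling. The cause of these changes was not tested. Deviations of libraries with the same replicate number correlated at 0.00, -0.01 and 0.06. With 2 libraries per group this cannot show whether equal numbers share a culture or a run. With the replicate block 4983, 4564 and 2864 genes and 3, 4 and 3 members were called, and STAT2 between NC-1 and parent was lost (adjusted p = 0.0517). It was also lost without the filter (0.0719) and without trend (0.0606), and JAK1 against NC-1 without trend (0.0522). IRF7 was under 0.23 FPKM in all libraries, and how far depth limits its values was not tested.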
